A study of Mus musculus with 4 samples.

Results

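The CD28 family and the co-inhibitory receptors are the surface molecules through which a T cell receives its second signal, and 10 of their genes were followed here in follicular helper T (TFH) cells: *Pdcd1*, *Ctla4*, *Icos*, *Cd28*, *Btla*, *Lag3*, *Havcr2*, *Tigit*, *Cd200* and *Cd86*. Members were taken by gene symbol. A probe set counted only when the platform annotation gave it that symbol and no other. This found 13 probe sets for 9 of the 10 genes, among 18193 genes on the array with a probe set of their own. *Tigit*, an inhibitory receptor for the poliovirus receptor, has no probe set under its own symbol and is not analysed here. Each gene is represented by its brightest probe set, and 3 genes have other probe sets that are given beside it.

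The series holds 4 Affymetrix arrays of TFH cells sorted from mouse spleens on day 8 after infection with the Armstrong strain of lymphocytic choriomeningitis virus (LCMV), 2 of Rictor-null and 2 of wild-type (WT) cells. Rictor is the subunit that defines mTOR complex 2. Rictor-null mice were Rictor fl/fl with a Cre recombinase under the *Cd4* promoter, which acts in CD4 and CD8 T cells alike, and WT mice were their Rictor fl/fl littermates without Cre. Animals of both sexes were infected at 6 to 10 weeks of age, and all were infected, so that no uninfected cells stand beside either group. Every array is labelled a biological replicate made from several mice. The series text gives at least 5 mice per pool, while the study's legend gives 6 Rictor-null and 4 WT mice, and nothing settles the difference. The p-values therefore rest on the spread between pools of a group. The moderated test used below combines each gene's spread with that of other genes. An exact permutation test of 2 arrays against 2 cannot reach the threshold.

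The CD28 family are immunoglobulin-like receptors that tune the signal of the T cell receptor. CD28 and ICOS are costimulatory and engage phosphoinositide 3-kinase, whereas PD-1 (encoded by *Pdcd1*), CTLA-4 and BTLA restrain the cell, PD-1 by recruiting the phosphatase SHP-2. LAG-3 and TIM-3 (*Havcr2*) are inhibitory receptors outside this family. CD200 is a ligand for an inhibitory receptor on myeloid cells, and CD86 is a ligand shared by CD28 and CTLA-4. TFH cells are known for high ICOS, PD-1, BTLA and CD200, while TIM-3 and LAG-3 are better known from effector and exhausted T cells.

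Several of these genes are neighbours. In the RefSeq annotation of GRCm38.p6 *Cd28*, *Ctla4* and *Icos* follow each other on chromosome 1 with 0 protein-coding genes between them, and *Pdcd1* lies farther along the same chromosome. *Btla* and *Cd200* are direct neighbours on chromosome 16, which also carries *Cd86* and *Tigit*. *Lag3* is on chromosome 6 and *Havcr2* on chromosome 11. RefSeq promoter windows, from 250 bases before to 50 after the start of the gene, were found for 6 of the 10 genes. The windows of *Pdcd1* and *Havcr2* are shown because these genes had the lowest and the highest log2 fold change among the members' brightest probe sets on the log2(intensity + 16) scale (GRCm38.p6, chr1:94052504-94052803 on the minus strand and chr11:46454681-46454980 on the plus strand). Both read 5′ to 3′ along the gene, and capitals mark the matches described next.
Pdcd1: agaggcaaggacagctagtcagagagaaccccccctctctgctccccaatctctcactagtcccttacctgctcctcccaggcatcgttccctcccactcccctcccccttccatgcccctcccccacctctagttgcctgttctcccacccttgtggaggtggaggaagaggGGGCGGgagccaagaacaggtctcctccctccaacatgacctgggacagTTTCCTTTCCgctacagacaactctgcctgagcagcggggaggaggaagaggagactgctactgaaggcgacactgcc
Havcr2: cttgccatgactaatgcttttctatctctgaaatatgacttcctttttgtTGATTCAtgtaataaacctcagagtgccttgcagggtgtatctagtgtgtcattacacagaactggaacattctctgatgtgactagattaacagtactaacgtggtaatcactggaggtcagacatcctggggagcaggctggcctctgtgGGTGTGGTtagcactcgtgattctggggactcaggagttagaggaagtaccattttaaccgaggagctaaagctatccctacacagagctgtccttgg
Searched on both strands, the *Pdcd1* window held the NFAT core GGAAA on its reverse strand at -28 and -23 from the start, and the GC box GGGCGG at -77. The *Havcr2* window held the AP-1 site TGANTCA at -200. Its T-box core GGTGTG at -48 overlaps the Runx site TGTGGT at -46 by 4 bases. Of 32841 windows of this length, 61.4% hold the NFAT core, 35.7% the GC box, 7.81% the AP-1 site, 19% the T-box core and 16.8% the Runx site. The E-box (CANNTG), Foxo (TGTTTAC) and Bcl6 (TTCNNNGAA) letters, held by 72.3%, 3.65% and 8.3% of windows, were also searched and are in neither. A match is a string of letters and was not tested as a binding site.

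The members did not move as a block. *Pdcd1* and *Cd28* were lower in Rictor-null than in WT TFH cells, *Havcr2*, *Cd86* and *Lag3* were higher, and *Ctla4*, *Icos*, *Btla* and *Cd200* did not pass the test. The test was limma's moderated test on log2(intensity + 16), with p-values adjusted by Benjamini-Hochberg across 18193 genes and a threshold of 0.05. Of the 9 members measured, 3 were thus higher and 2 lower, against a background of 12.5% of all genes called higher and 7.19% called lower. In 4 members both Rictor-null arrays lay above both WT arrays (in *Cd200* by under 1 intensity unit) and in 4 they lay below, while 30.6% of all genes were apart upwards and 24.9% downwards. The median log2 fold change was 0.0033 over the members and 0.0068 over all genes, and the median of its size was 0.29 over the members and 0.07 over all genes. *Havcr2* was the 1 member whose brightest probe set reached 1.5-fold on this scale, as 297 of 18193 genes did. The dimmer *Cd86* probe set, described below, also reached it. On this scale the added 16 makes fold changes of dim genes smaller, also those that enter the median size over all genes. The members were chosen with earlier results of these data known, so their larger median size is a description only. The WT arrays of *Havcr2* lie below the array median, so the size of its change is not set against that of the other members. The arrays are bulk samples, in which fewer cells carrying a transcript and less transcript per cell cannot be told apart.

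**Figure D1:**
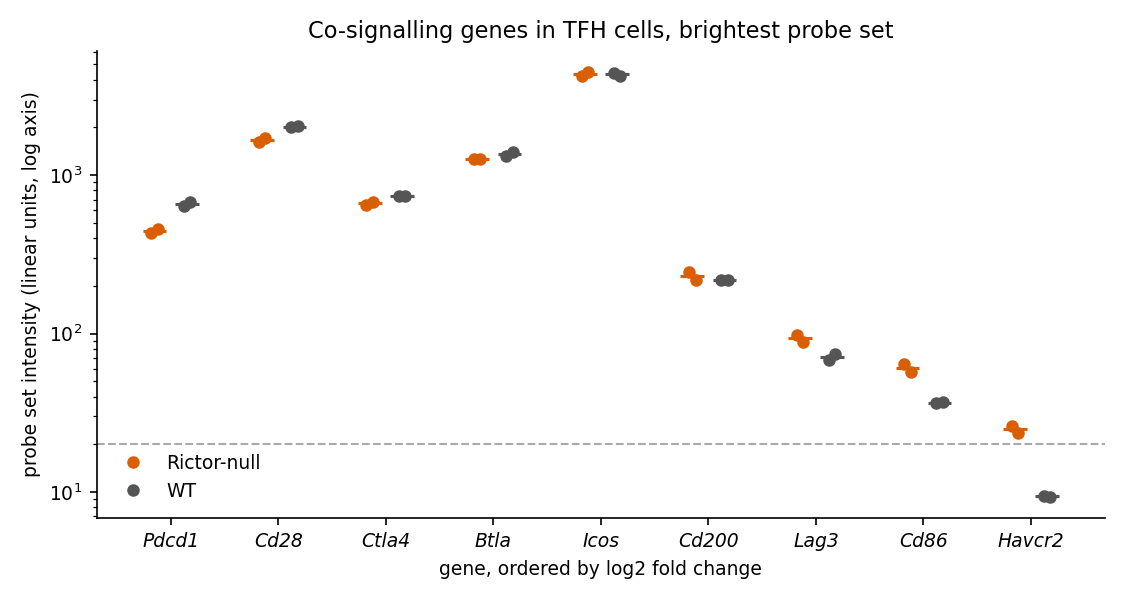
Intensity (linear units, log axis) of the brightest probe set of 9 genes on each array, Rictor-null (orange) left of WT (grey), with a bar at the mean of 2 arrays and a dashed line at the median over all probe sets, 20.2. *Pdcd1* and *Cd28* sit lower in Rictor-null cells, the *Icos* arrays interleave, and *Havcr2* lies above the line only in Rictor-null cells; heights of different genes are not comparable.

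Among the costimulatory receptors, *Cd28* fell and *Icos* gave no call in its brightest probe set. *Cd28*, the receptor that supplies the main second signal to naive T cells, had intensities of 1613 and 1705 in Rictor-null cells, against 2008 and 2042 in WT cells. Both Rictor-null arrays were below both WT arrays, and the mean was 1659 ± 64.8 in Rictor-null and 2025 ± 24.2 in WT cells (SD, n = 2 each), so that it fell by 18.1%. The log2 fold change was -0.29 (standard error 0.04, 95% interval -0.38 to -0.19, adjusted p = 0.00056 from limma). *Icos*, whose product receives ICOS ligand from B cells and is needed for TFH cells to form and stay in the follicle, was at 4219 and 4477 in Rictor-null cells, against 4423 and 4251 in WT cells. The groups overlapped. Its log2 fold change of 0.0033 (interval -0.09 to 0.10, adjusted p = 0.974 from limma) turned negative with median centring and with quantile normalization, so no direction can be given for this probe set.

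The inhibitory members of the family lay lower in Rictor-null cells in each brightest probe set, but only *Pdcd1* passed the test. *Pdcd1* was at 430 and 454 in Rictor-null cells, against 637 and 674 in WT cells. The groups stood well apart, with means of 442 ± 17.1 in Rictor-null and 656 ± 26.6 in WT cells (SD, n = 2 each). It fell by 32.6%, a log2 fold change of -0.55 (standard error 0.05, interval -0.67 to -0.43, adjusted p = 2.41e-05 from limma). *Ctla4*, whose product competes with CD28 for CD80 and CD86, was at 652 and 675 in Rictor-null cells, against 737 and 734 in WT cells. These arrays did not overlap, but the log2 fold change of -0.15 (interval -0.25 to -0.04) missed the threshold at an adjusted p of 0.0537 from limma. It passed with median centring (adjusted p = 0.0358), with quantile normalization (0.0287) and with dim probe sets left out (0.0348), and over all adjusted alternatives the adjusted p ran from 0.0287 to 0.222. *Btla*, which binds the TNF receptor family member HVEM, was at 1258 and 1270 in Rictor-null cells, against 1327 and 1395 in WT cells. Again the groups were apart and the test was not passed, with a log2 fold change of -0.11 (interval -0.20 to -0.006, adjusted p = 0.140 from limma).

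The inhibitory receptors outside the family lay higher in Rictor-null cells. *Havcr2*, encoding TIM-3, was at 26.2 and 23.5 in Rictor-null cells, against 9.46 and 9.35 in WT cells. The WT arrays were below their array's median intensity, and the Rictor-null arrays just above theirs, so this is a change at the low end of the signal. Against the array median in place of the WT signal, *Havcr2* was at least 1.24-fold higher in Rictor-null cells. The log2 fold change of the fit, which takes the dim WT values as they are, was 0.69 (standard error 0.06, interval 0.55 to 0.82, adjusted p = 1.07e-05 from limma). With 1 added in place of 16 it was 1.31, so its size depends on how the dim signal is treated. *Lag3*, whose product binds MHC class II, was at 97.5 and 89.0 in Rictor-null cells, against 67.8 and 74.7 in WT cells. Both Rictor-null arrays were above both WT arrays, and the log2 fold change was 0.32 (standard error 0.08, interval 0.14 to 0.51, adjusted p = 0.0158 from limma). The call was lost without Rictor-null replicate 1, WT replicate 1 or WT replicate 2, and held without Rictor-null replicate 2. The log2 fold changes in these fits were 0.27, 0.27, 0.38 and 0.38. Each fit leaves 1 array in a group and tests more weakly, so losing the call does not show reliance on 1 array.

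The members that act as ligands were CD200 and CD86. *Cd200* was at 246 and 218 in Rictor-null cells, against 218 and 217 in WT cells. Replicate 2 of the Rictor-null cells was level with the WT arrays, and the log2 fold change was 0.08 (interval -0.07 to 0.23, adjusted p = 0.479 from limma). *Cd86*, a ligand best known from antigen-presenting cells, was at 64.5 and 57.0 in Rictor-null cells, against 36.4 and 36.9 in WT cells. The groups were apart, with means of 60.8 ± 5.30 in Rictor-null and 36.6 ± 0.391 in WT cells (SD, n = 2 each). The log2 fold change was 0.54 (standard error 0.09, interval 0.35 to 0.73, adjusted p = 0.000692 from limma).

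*Cd28*, *Icos* and *Cd86* were read by more than 1 probe set, which share the same RNA and are not replicates. These probe sets were tested together over 45037 probe sets, where 6.38% were called higher and 4.63% lower. Both *Cd86* probe sets were called, and of the *Cd28* and *Icos* probe sets 1 each. The dimmer *Cd86* probe set was at 53.6 and 56.6 in Rictor-null cells, against 22.5 and 26.5 in WT cells, with a log2 fold change of 0.81 (adjusted p = 0.000398 from limma over all probe sets). The other *Cd28* probe set was at 1466 and 1544 in Rictor-null cells, against 1682 and 1632 in WT cells. It was lower in both Rictor-null arrays, but its log2 fold change of -0.14 did not pass (adjusted p = 0.0908 from limma). The mean of both *Cd28* probe sets gave -0.21 (adjusted p = 0.0167 from limma over genes). *Icos* has 3 probe sets. The second was at 3717 and 3796 in Rictor-null cells, against 3466 and 3418 in WT cells, a log2 fold change of 0.13 that passed (adjusted p = 0.0472 from limma), while the last had 0.14 (adjusted p = 0.252). The mean of all 3 *Icos* probe sets gave 0.09 (adjusted p = 0.262 from limma). No *Icos* probe set was called lower. The parts of a transcript that each probe set covers were not given here.

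**Figure D2:**
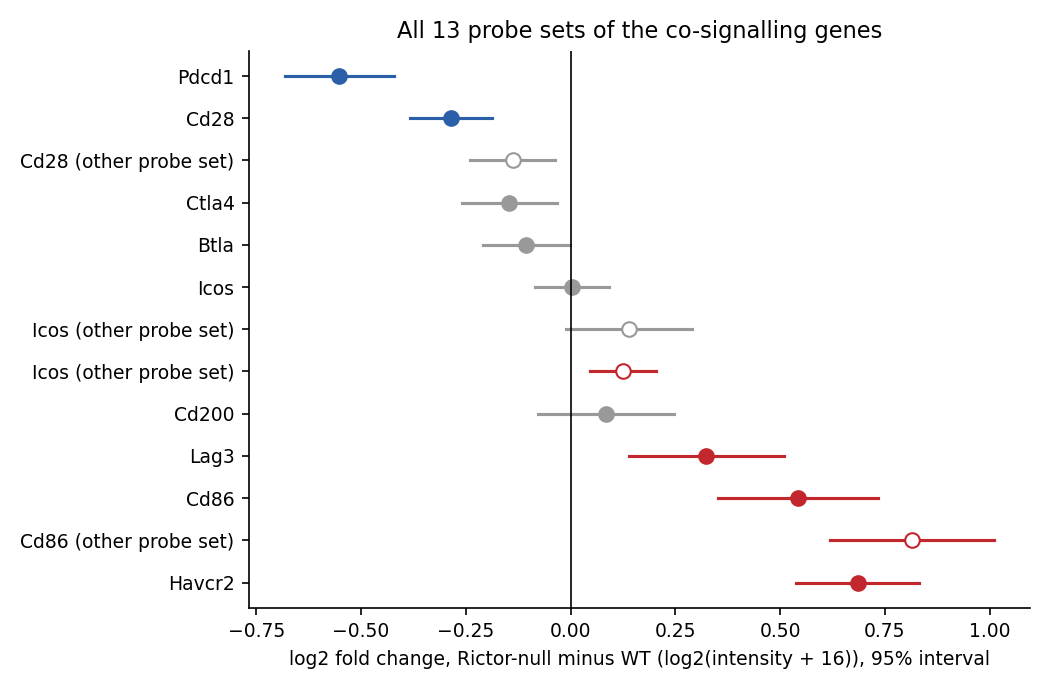
Log2 fold change (Rictor-null minus WT, on log2(intensity + 16)) of each of the 13 probe sets with its 95% interval, filled for the brightest of a gene and open for the others, red for called higher, blue for called lower and grey for not passed over all probe sets. The *Cd86* probe sets lie together on the right, at 0.54 and 0.81, and the *Icos* probe sets lie at 0.0033, 0.13 and 0.14.

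Levels of other cells' markers and the targeted gene bear on how these values are read. *Rictor* itself was at 267 and 279 in Rictor-null cells, against 334 and 303 in WT cells in its brightest probe set (log2 fold change -0.21, adjusted p = 0.0366 from limma), and 4 other probe sets lay between -0.03 and 0.11. That call was lost when its 5 probe sets were averaged (-0.014) and without Rictor-null replicate 1 (adjusted p = 0.159), WT replicate 1 (0.297) or WT replicate 2 (0.0824). Probe sets outside the deleted exons do not check the deletion, and which probe sets these are was not given here. The study separately reported *Rictor* message as undetectable in TFH cells sorted from its Rictor-null mice. Of the 8 TFH markers, led by *Tox2*, *Sh2d1a* and *Cd3e*, all but *Cd40lg* were above the median on every array. Their summed intensity was 6119 and 6060 in Rictor-null cells, against 8951 and 8439 in WT cells, and 6 of the 8 were lower. Of all genes, 12.5% were called higher and 7.19% lower. *Foxp3*, the defining regulatory T cell factor, was below the array median on all 4 arrays, at 9.91 and 7.35 in Rictor-null cells and 7.80 and 10.9 in WT cells. The 9 regulatory T cell markers measured, led by *Ikzf2*, *Tnfrsf18* and *Nrp1*, summed to 2885 and 2867 in Rictor-null cells and 2927 and 2921 in WT cells, with 3 higher (1 without WT replicate 2) and 1 lower. *Ikzf2* averaged 1033 in Rictor-null and 1361 in WT cells, while *Tnfrsf18* averaged 1061 and 831. The near-level sums thus hold opposite changes.

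Some markers of dendritic cells and macrophages were higher in the same arrays as *Cd86*, *Havcr2* and *Lag3*, genes that such cells can also express. Of 17 measured, 4 were higher and 13 did not pass, beside 12.5% of all genes called higher and 7.19% lower. The summed intensity of the 17 was 761 and 702 in Rictor-null cells, against 498 and 472 in WT cells. *Itgax*, encoding CD11c, was at 145 and 142 in Rictor-null cells, against 54.4 and 45.6 in WT cells (log2 fold change 1.28). *Lyz2*, a macrophage lysozyme, was at 113 and 102 in Rictor-null cells, against 58.1 and 54.7 in WT cells. *Cd68*, the brightest of the list, did not pass, and *Xcr1*, *Siglech*, *Csf2rb2*, *Cd14*, *C1qa* and *C1qb* were below the median on every array. *Itgam* and *Fcgr3*, the other markers called higher, were picked out after their values were seen. Of 12 B cell markers 4 were higher and 8 did not pass, with sums of 257 and 250 in Rictor-null cells and 187 and 185 in WT cells, and 9 of the 12, *Ms4a1*, *Cd79a* and *Pax5* among them, were below the median on every array. *H2-Aa*, *Cd74* and *Cd79b* were its brightest members. The 4 became 2 without Rictor-null replicate 1 or WT replicate 1 and 1 without WT replicate 2. Of 5 CD8 T cell and NK cell markers, *Klrc1* and *Cd8b1* were higher and 3 did not pass. The *Klrc1* call was lost without either WT replicate, in fits that leave 1 WT array. With all arrays it was also lost when the 2 *Klrc1* probe sets were averaged. *Cd8a* was level, at 23.7 and 25.2 in Rictor-null cells, against 24.7 and 24.0 in WT cells (log2 fold change 0.0035). The list summed to 473 and 507 in Rictor-null cells and 382 and 367 in WT cells. The cells were sorted as TFH cells. For its migration assay the study depleted cells bearing CD8, B220, CD11c, Gr-1, TER119 or NK1.1 before the TFH stain. Whether the array samples were depleted in this way is not stated. The part of cells other than TFH cells in the higher values of *Cd86*, *Havcr2* and *Lag3* was not tested.

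The ligands and counter-receptors of these molecules, 14 of 15 of them measured, mostly did not pass, with 1 higher, 2 lower and a median log2 fold change of -0.02. Over all genes 12.5% were called higher and 7.19% lower. *Cd274*, encoding the PD-1 ligand PD-L1, was at 152 and 144 in Rictor-null cells, against 204 and 187 in WT cells (log2 fold change -0.37, adjusted p = 0.00241 from limma). PD-L1 message was thus lower alongside that of its receptor, but the call was lost without WT replicate 1 (adjusted p = 0.0805). *Cd200r1*, the receptor for CD200, was also lower (-0.47, adjusted p = 0.00456), though not without WT replicate 1 (0.122) or WT replicate 2 (0.0876). *Lgals3*, encoding galectin-3, a lectin reported to bind LAG-3, was at 2157 and 2009 in Rictor-null cells, against 1104 and 1172 in WT cells (0.86, adjusted p = 4.23e-07). *Ceacam1*, described as a partner of TIM-3, had -0.24 and did not pass (adjusted p = 0.0622), and its call depended on the processing. It passed with median centring (0.0474) and quantile normalization (0.0401), while the average of its 8 probe sets gave -0.016 (0.825).

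Other T cell co-signalling receptors went both ways, as the members did. Of 21 measured of 24, 7 were higher and 4 lower, against 12.5% and 7.19% of all genes, with a median log2 fold change of 0.02. The 7 became 4 without Rictor-null replicate 2 and 3 without either WT replicate. *Cd5* and *Cd6*, scavenger-receptor-like inhibitors of T cell receptor signalling, were lower by log2 fold changes of -0.47 (adjusted p = 1.17e-05 from limma) and -0.45 (4.29e-05). *Nt5e*, encoding the adenosine-forming enzyme CD73, was lower as well (-0.54, adjusted p = 2.34e-05), and averaging its 3 probe sets gave -0.27 (0.0148). *Tnfrsf18*, encoding the costimulatory receptor GITR, was higher (0.35, adjusted p = 0.000223). The study's flow cytometry gated TFH cells as low in GITR; whether the sort for the arrays did so is not stated.

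Signalling and trafficking partners of the receptors were more often lower than higher. Of 26 measured of 29, 9 were lower, 1 was higher and 16 did not pass, with a median log2 fold change of -0.07. Among all genes 7.19% were called lower and 12.5% higher. The 9 became 5 without WT replicate 1. *Ptpn11*, encoding SHP-2, the phosphatase that PD-1 recruits, averaged 1314 ± 15.6 in Rictor-null and 1854 ± 53.6 in WT cells (SD, n = 2 each), or -0.49 as a log2 fold change (adjusted p = 1.11e-05 from limma), and the average of its 3 probe sets gave -0.28 (0.0173). *Fyn*, a Src family kinase of the T cell receptor pathway, had -0.37 (adjusted p = 7.90e-05), and *Cblb*, a ubiquitin ligase that holds back cells lacking CD28 signal, had -0.45 (adjusted p = 9.09e-05), or -0.25 (0.0104) as the average of 3 probe sets. *Trat1*, an adaptor of the T cell receptor complex, was the 1 higher gene (0.53, adjusted p = 7.54e-05).

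The transcription factors known to act on these genes in T cells were the list with the most calls. Of 22 measured of 23, 14 were lower, 3 were higher and 5 did not pass, with a median log2 fold change of -0.36. Among all genes 7.19% were called lower and 12.5% higher. *Nfatc1*, encoding a calcium-responsive factor known to drive *Pdcd1*, was at 548 and 573 in Rictor-null cells, against 918 and 899 in WT cells (-0.68, adjusted p = 2.49e-06 from limma). *Tox2* and *Maf*, factors of the TFH programme, had -0.85 (adjusted p = 1.11e-07) and -0.84 (4.70e-07), with -0.53 (0.000841) for *Tox2* when its probe sets were averaged, and the AP-1 subunit *Fos* had -0.66 (1.11e-06). The list also holds TFH factors in general, and all lists were chosen with earlier results of these data known. Its number of calls and its median, beside the 0.0068 of all genes, are therefore a description.

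**Figure D3:**
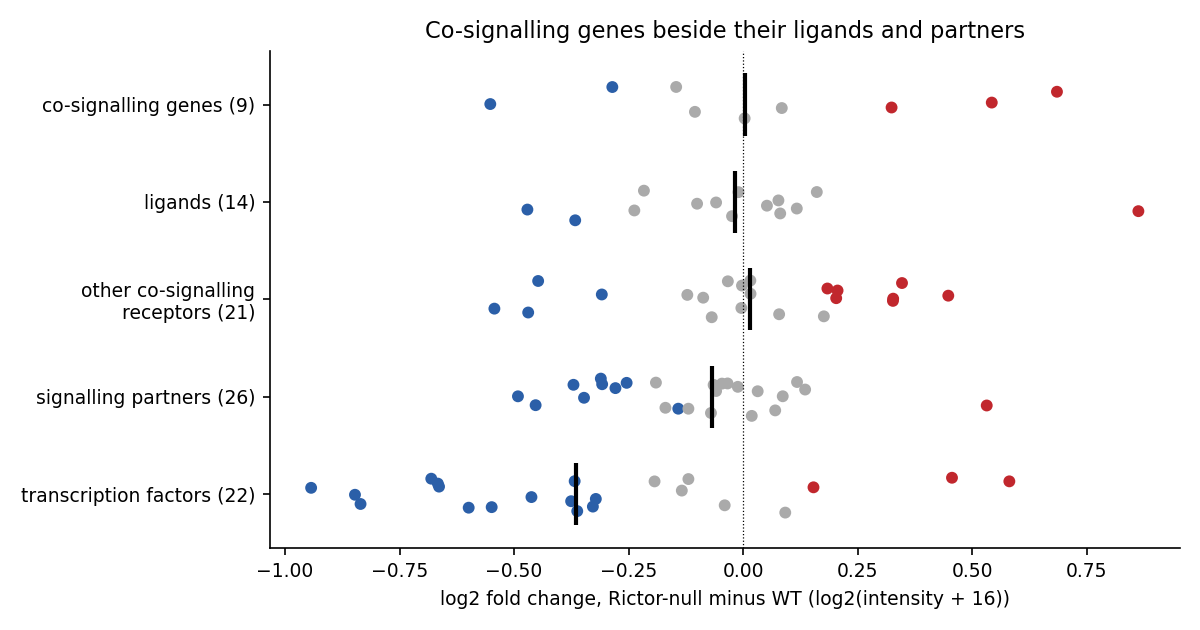
Log2 fold change (Rictor-null minus WT) of the members and of each gene of 4 lists, 1 point per gene, red for called higher, blue for called lower and grey for not passed, with a black bar at the median. The transcription factors have their bar at -0.36, and the other lists lie around 0.

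Genes with the most similar course over the 4 arrays were sought for each called member, as the root mean square distance between log2 values centred on each gene. *Mapre2* (0.012) and *Marcksl1* (0.017) were nearest to *Pdcd1*, with 24 genes within 0.05. *Cwc25* and *Nab1* were nearest to *Cd28*, *1700066M21Rik* and *Psma4* to *Lag3*, *Sdcbp2* and *Tk1* to *Havcr2*, and *Ppil3* and *Gtf2h5* to *Cd86*. For these members between 60 and 372 genes lay within 0.05, so that 4 arrays do not single out close partners.

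The calls of *Pdcd1*, *Cd28*, *Havcr2* and *Cd86* held in every fit with an array left out. With the test named in the study's methods, run without moderation on 2 arrays a group, none of them survived Benjamini-Hochberg adjustment (adjusted p = 0.0829 for *Pdcd1*). Leaving out dim probe sets drops *Havcr2* from the limma fit.

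**Figure D4:**
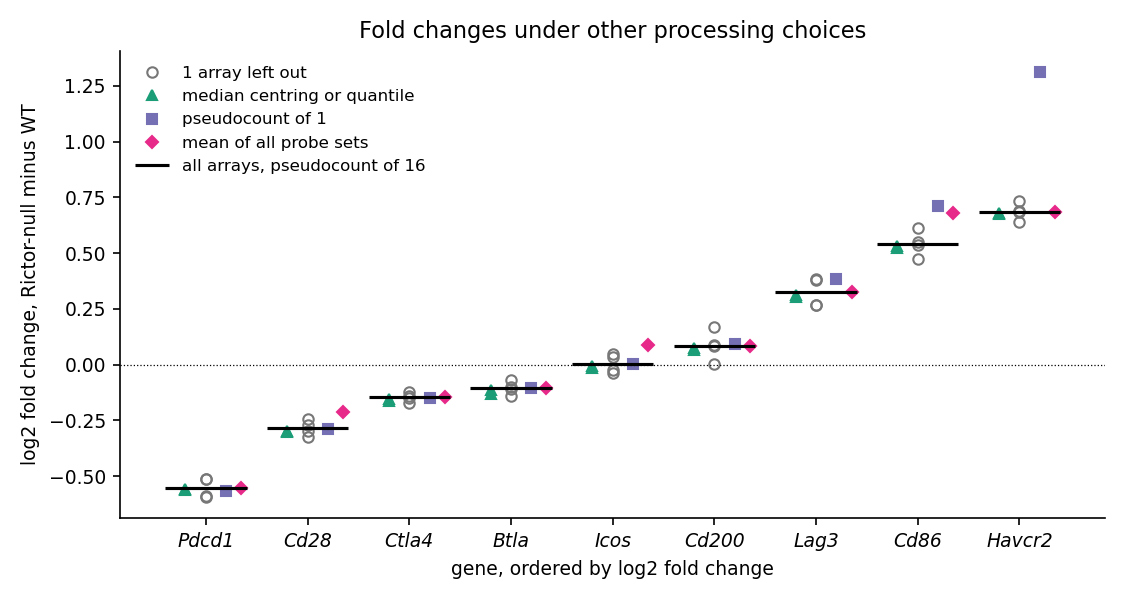
Log2 fold change (Rictor-null minus WT) of the 9 genes with all arrays and 16 added (black bar), with 1 array left out (circles), with median centring or quantile normalization (triangles), with 1 added (squares) and with a gene's probe sets averaged (diamonds). *Pdcd1* stays between -0.59 and -0.51, while *Havcr2* reaches 1.31 with 1 added in place of 16.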

How the data were processed

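The deposited values are linear intensities of 45037 probe sets on 4 one-colour Affymetrix arrays, 2 Rictor-null and 2 WT. The processing notes of the authors list MAS5 and RMA with no version or role, so the method behind them is not stated. Array medians of 20.0 to 20.4 show scaling before deposit. Of the probe sets, the platform annotation gives 34945 a single gene symbol (1 symbol), 932 several and 9160 none. The brightest probe set by mean over 4 arrays stood for each of 18193 genes.

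Values became log2(intensity + 16) and went into limma 3.58.1 under R 4.3.3 (lmFit, eBayes with trend, Benjamini-Hochberg over genes, 0.05). The steps were tested on simulated data. Pearson's r across probe sets was 0.998 within groups and 0.993 to 0.994 between them. Precision is limited by the number of arrays.

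The members and lists were chosen with earlier results of these data known. Named genes are the members, *Rictor*, up to 4 genes per pathway list by smallest p, up to 3 per marker list by brightness and the 2 nearest genes to each called member; *Foxp3*, *Itgam*, *Fcgr3* and markers below the array median were named after their values were seen. Promoter windows are from RefSeq. Alternatives were median centring, quantile normalization, dim probe sets left out, the mean of all probe sets, no trend, the replicate block, each array left out, a pseudocount of 1, all probe sets together and the methods' t-test.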

Additional observations from a re-analysis of the deposited data

How the results depend on the processing

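No call of a member changed direction, and *Icos*, not called, lay on either side of 0. Against 2283 genes higher and 1308 lower, the mean of all probe sets called 842 genes lower and the methods' t-test without adjustment 2231 lower. With Benjamini-Hochberg adjustment that t-test called 3 genes higher, 3 lower and 0 members in either direction, against 3 members higher and 3 lower without it. It is one-tailed, with the direction taken from the data, while limma's test covers both directions. Its counts and those of limma are therefore not on the same footing. Leaving out each array in turn called 930 to 2000 genes higher and 457 to 1048 lower. The counts fell most without a WT array. Such a fit leaves 1 WT array and takes each gene's own spread from the Rictor-null pair alone. The fall therefore does not measure how much a WT array matters. Same-numbered replicates are not stated to share a batch, and their deviations correlated at -0.095 over all probe sets and -0.139 over the brighter ones. With the replicate block 2366 genes were higher and 1382 lower, with 3 and 2 members. Pairing the numbers crosswise, added after seeing the data, gave 2678 higher and 1640 lower. Dim signal limits *Havcr2*, whose WT arrays lie below the array median.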
